A study of Homo sapiens with 12 samples.

Results

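The genes described here are 9 feedback regulators and targets of Wnt signalling (*AXIN2*, *NKD1*, *NKD2*, *APCDD1*, *ZNRF3*, *RNF43*, *TNFRSF19*, *LGR4* and *SP5*), taken by gene symbol from a table of 21893 genes. All 9 are in the table. Reads were found for 7 of them, and these 7 passed the filter on low counts and were tested. The RNA came from CCD-18Co, a line of human myofibroblasts from normal colon, treated for 24 h in 4 groups of 3 libraries: Wnt3A at 100 ng/ml plus 1,25(OH)2D3 at 100 nM, Wnt3A alone, 1,25(OH)2D3 alone, or the vehicles of both agents. 1,25(OH)2D3 is the hormonal form of vitamin D, and Wnt3A is a secreted ligand of the Wnt family. The libraries of each group came from 3 independent experiments with 1 cell line, so the spread between them is that of repeated experiments on the same cells.

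In the canonical Wnt pathway a ligand binds Frizzled receptors with LRP co-receptors at the cell surface, which inhibits the destruction complex that otherwise degrades β-catenin. β-catenin then enters the nucleus and activates target genes with TCF/LEF factors. Many of these targets encode inhibitors of the same pathway, so that the response is damped at the surface, in the cytoplasm and in the nucleus. In the colon, fibroblasts and myofibroblasts beneath the epithelium both produce and receive Wnt signals.

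Promoter sequences (250 bases before the annotated start, RefSeq, GRCh38.p14) matched 6 of the 9 genes, with 8 promoters in all. *AXIN2*, *NKD1* and *ZNRF3* had no entry. The TCF/LEF core was searched as CTTTGAT or CTTTGAA on both strands, and 5.94% of the 35116 promoters of the table hold it. Among the 8 promoters it was found in that of *SP5* alone, with 3 matches. Their positions were 148 to 142 bases before the start on the minus strand, 109 to 103 on the plus strand and 84 to 78 on the minus strand. A vitamin D response element (the direct repeat with a 3-base spacer, both strands) was found in 0 of the 8 promoters and in 0.0655% of all promoters. The promoter of *SP5* (chr2:170715087-170715336, plus strand) is shown as the one with matches, in capitals. Those of *NKD2* (chr5:1008552-1008801, plus strand) and *APCDD1* (chr18:10454385-10454634, plus strand), the pair with the highest levels under the combined treatment, are shown beside it and hold neither motif. A match or its absence describes these letters only.
SP5: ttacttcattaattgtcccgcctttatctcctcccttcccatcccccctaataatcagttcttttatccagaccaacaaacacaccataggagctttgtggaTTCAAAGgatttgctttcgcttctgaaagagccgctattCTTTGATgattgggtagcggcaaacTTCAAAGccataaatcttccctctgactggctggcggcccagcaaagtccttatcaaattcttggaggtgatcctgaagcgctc
NKD2: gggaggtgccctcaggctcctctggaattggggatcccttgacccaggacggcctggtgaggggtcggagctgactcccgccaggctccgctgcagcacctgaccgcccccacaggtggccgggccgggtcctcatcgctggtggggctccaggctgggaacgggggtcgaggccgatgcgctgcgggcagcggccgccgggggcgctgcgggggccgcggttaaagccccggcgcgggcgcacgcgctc
APCDD1: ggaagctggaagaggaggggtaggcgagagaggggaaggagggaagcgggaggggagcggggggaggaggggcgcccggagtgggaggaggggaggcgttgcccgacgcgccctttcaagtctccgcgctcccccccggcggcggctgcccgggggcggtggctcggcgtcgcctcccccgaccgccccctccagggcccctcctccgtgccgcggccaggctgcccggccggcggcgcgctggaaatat

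Each library held 5363668 to 6261100 read equivalents. The deposited values behaved as counts of aligned bases, since 78.2% to 80.9% of the values from 1 to 400 in a library were multiples of 40, the read length, and they were divided by 40. Levels are given in CPM, the read equivalents scaled to a common library total with TMM factors. All 14 myofibroblast markers were detected, with a summed level of 38011 to 46820 CPM per library, and that sum was 45499 to 46820 CPM with the combined treatment and 38011 to 39691 CPM with vehicle. Its part in the results below was not tested. Of 8 epithelial markers 4 had no read in any library and 7 stayed below 1 CPM, as did all 4 glial, 3 of 6 endothelial and 4 of 6 leukocyte markers. The summed leukocyte level of 176 to 214 CPM came mainly from *CD68*, at 165 to 203 CPM, which passed the test in no comparison. Another leukocyte marker, *CD14*, had 9.04 to 12.7 CPM with the combined treatment, 6.74 to 9.80 CPM with Wnt3A, 14.8 to 19.0 CPM with 1,25(OH)2D3 and 7.99 to 11.1 CPM with vehicle, and rose with 1,25(OH)2D3 over vehicle (log2 fold change 0.82 ± 0.17, adjusted p = 0.00137). The summed endothelial level was 2.44 to 3.87 CPM with the combined treatment, 2.66 to 3.83 CPM with Wnt3A, 2.77 to 6.02 CPM with 1,25(OH)2D3 and 3.82 to 17.1 CPM with vehicle. Its tested marker *VWF* had -1.10 ± 0.36 with Wnt3A over vehicle (adjusted p = 0.0711, with the block 0.00714) and -0.95 ± 0.35 with the combined treatment (0.0570, with the block 0.00803). The part of these markers in the results below was not tested. As a check of the hormone treatment, *CYP24A1*, which encodes the enzyme that degrades 1,25(OH)2D3, averaged 261 ± 59.8 CPM with the combined treatment, 0.276 ± 0.346 CPM with Wnt3A, 263 ± 48.5 CPM with 1,25(OH)2D3 and 0.271 ± 0.246 CPM with vehicle (SD, n = 3 each). In bulk RNA, fewer cells that express a gene and less RNA per cell cannot be told apart.

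Wnt3A raised most of the set. Of the 7 tested genes, 6 rose with Wnt3A over vehicle and 0 fell, where 4.96% of all 12216 tested genes rose and 3.33% fell (edgeR quasi-likelihood test, adjusted p under 0.05 over all tested genes). The members and the further lists below were chosen with earlier results of these data known. Their counts beside the shares over all genes are thus descriptions and not tests of a set. The log2 fold changes were 4.44 for *NKD1*, 3.17 for *AXIN2*, 2.22 for *APCDD1*, 1.53 for *NKD2*, 1.36 for *TNFRSF19* and 0.72 for *ZNRF3*. *LGR4* did not pass the test at 0.14. *NKD1* passed the filter on low counts only through the groups with Wnt3A, so its rise was partly set by that filter, and of the other 6 genes 5 rose. The median of the 7 was 1.53, against -0.00 over all tested genes. The same 6 genes rose with the combined treatment over vehicle, where 13.3% of all tested genes rose and 10.7% fell, and with the combined treatment over 1,25(OH)2D3, where 5.20% rose and 4.03% fell. 0 members fell in either comparison. For *NKD1* both rises were again partly set by the filter, and of the other 6 genes 5 rose in each.

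1,25(OH)2D3 alone raised *NKD2* over vehicle, 1 of the 7, where 8.54% of all tested genes rose, and 0 fell, where 6.12% fell. That count lies near the share over all genes. With the experiment as a replicate block, 2 rose (*NKD2* and *APCDD1*) and 1 fell (*TNFRSF19*), where 13.0% and 11.2% of all tested genes did. Added to Wnt3A, it raised *NKD2* and lowered *TNFRSF19*, where 7.54% of all tested genes rose and 5.90% fell. The block added *APCDD1* to those that rose, where 11.4% of all tested genes rose and 10.6% fell. Set directly against Wnt3A alone, 1,25(OH)2D3 alone gave lower levels of 5 of the 7 genes (*AXIN2*, *NKD1*, *APCDD1*, *ZNRF3* and *TNFRSF19*) and higher levels of 0, where 10.7% and 11.7% of all tested genes were lower and higher. For *NKD1* this direction was again partly set by the filter, and of the other 6 genes 4 were lower. With the block *NKD2* was lower as well, where 15.4% of all tested genes were lower.

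**Figure D1:**
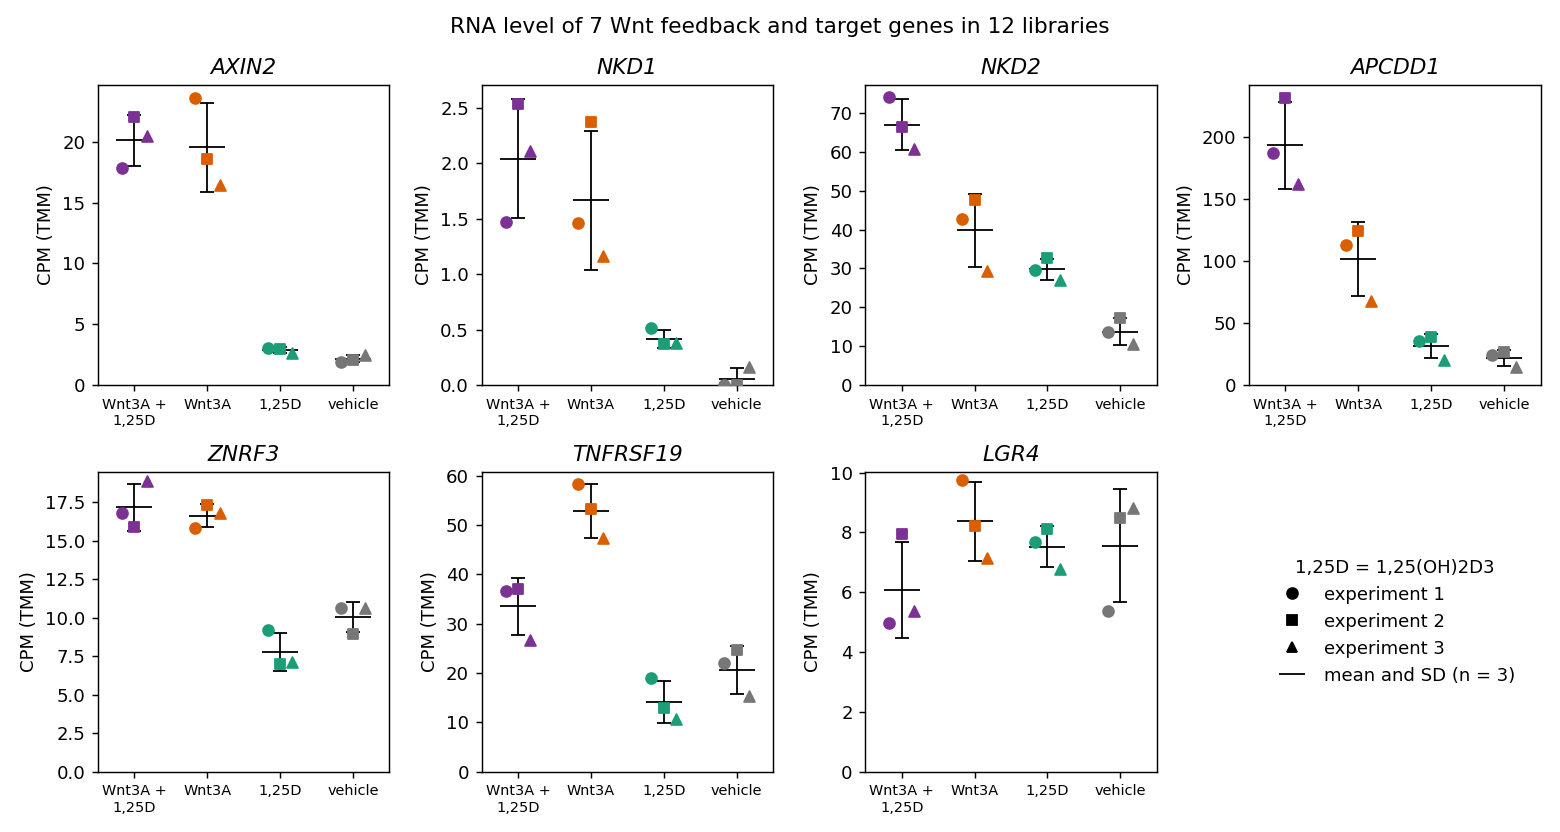
CPM of the 7 genes with reads, 1 panel per gene, in each of 12 libraries (points, shaped by experiment) by treatment, with the mean and SD of 3 libraries as lines. *AXIN2* lies between 16.4 and 23.6 CPM in the 6 libraries that received Wnt3A and between 1.91 and 3.07 CPM in the other 6, whereas *NKD2* and *APCDD1* are highest with the combined treatment, *TNFRSF19* is highest with Wnt3A alone and *LGR4* overlaps in all groups.

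**Figure D2:**
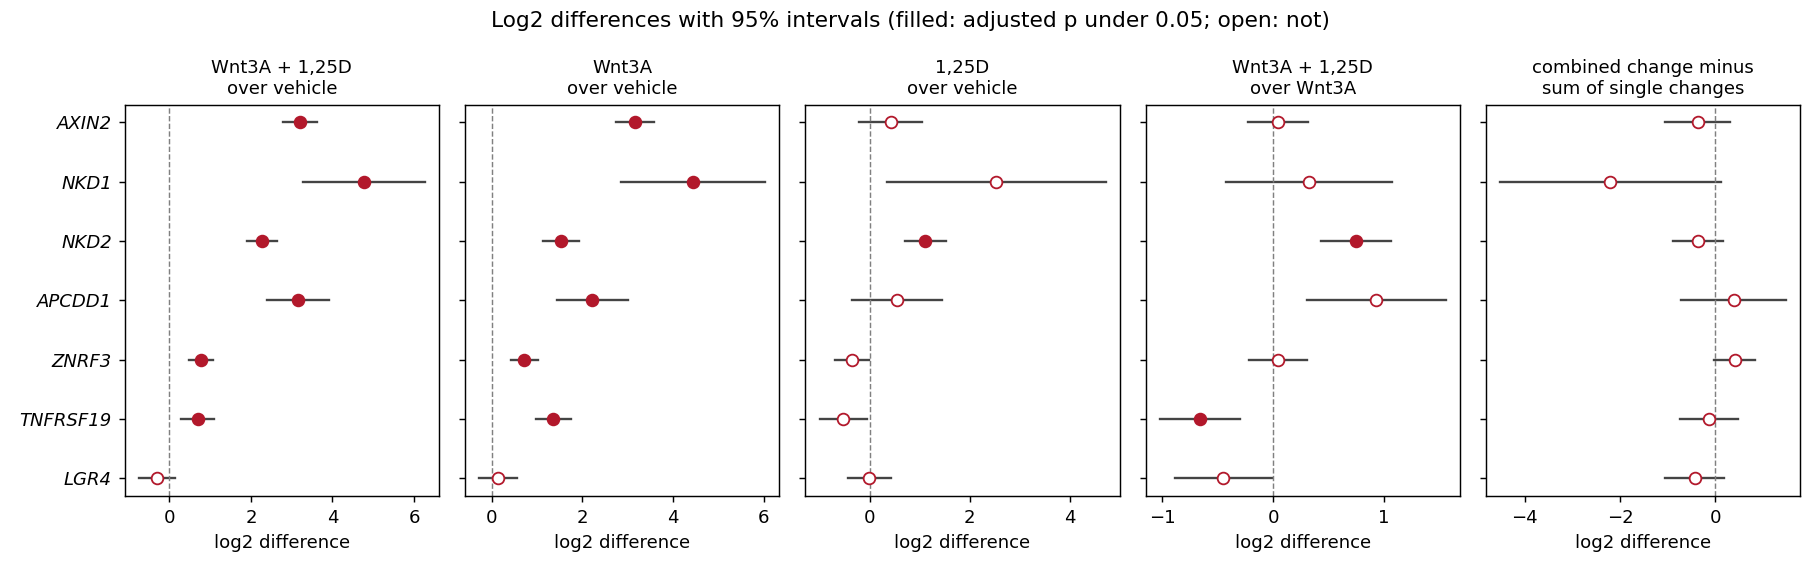
Log2 differences (points) with 95% intervals (lines) of the 7 genes in 5 comparisons, with separate x axes. Filled points passed the test without the block. 6 of 7 are filled over vehicle with the combined treatment and with Wnt3A, 1 with 1,25(OH)2D3, 2 for the combined treatment over Wnt3A, and 0 in the last panel, which gives how far the combined change departs from the single changes added together.

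Among the cytoplasmic inhibitors, *AXIN2* encodes a scaffold of the β-catenin destruction complex and is widely used as a reporter of canonical Wnt signalling. It lies on chromosome 17 (63524683 to 63557740, minus strand, GRCh37, as are all gene positions here). An annotated gene without a symbol overlaps its exons on the same strand, so that reads there could belong to either. Its level in experiments 1, 2 and 3 was 17.9, 22.0 and 20.5 CPM with the combined treatment, 23.6, 18.6 and 16.4 CPM with Wnt3A, 3.07, 2.95 and 2.64 CPM with 1,25(OH)2D3, and 1.91, 2.08 and 2.49 CPM with vehicle. The 6 libraries with Wnt3A stood clear of the 6 without it, and the combined and Wnt3A groups overlapped. The log2 fold change over vehicle was 3.21 ± 0.20 (SE) with the combined treatment (adjusted p = 4.98e-12) and 3.17 ± 0.20 with Wnt3A (adjusted p = 6.86e-11).

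1,25(OH)2D3 made no detectable difference to *AXIN2* on either background. Over vehicle the log2 fold change was 0.42 with a 95% interval of -0.22 to 1.05 (adjusted p = 0.412), although the 3 libraries with 1,25(OH)2D3 lay just above the 3 with vehicle. Of all tested genes, 15.0% had such a separation in the same direction. For the combined treatment over Wnt3A it was 0.04 with an interval of -0.23 to 0.32 (adjusted p = 0.875). Within experiments the combined treatment was 0.39 lower than Wnt3A on the log2 scale in experiment 1, and 0.24 and 0.31 higher in experiments 2 and 3. A p that misses the threshold does not show that *AXIN2* stayed the same, and these intervals give the changes that remain possible.

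*NKD1* and *NKD2* encode the Naked cuticle proteins, which bind Dishevelled in the cytoplasm and dampen Wnt signalling. *NKD1* (chromosome 16, 50582241 to 50668641, plus strand) was near the limit of detection. It had 8, 16 and 13 reads in experiments 1, 2 and 3 with the combined treatment, 9, 13 and 7 with Wnt3A, 3, 2 and 2 with 1,25(OH)2D3, and 0, 0 and 1 with vehicle. The groups with Wnt3A did not overlap the other groups, and *NKD1* passed the filter on low counts only through them. A difference between them and the groups without Wnt3A was thus built into its selection for testing. The summed reads were 37 and 29 with the combined treatment and with Wnt3A, against 1 with vehicle. The ratio to vehicle was 37.3 with the combined treatment (95% counting interval 6.29 to 1513) and 29.6 with Wnt3A (4.91 to 1210), both after scaling by depth. The test gave adjusted p = 2.08e-05 and 0.000299 for these comparisons.

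With 1,25(OH)2D3 alone, *NKD1* had 7 reads in all against the 1 read with vehicle, a ratio of 7.61 with a counting interval of 0.977 to 343, and did not pass the test (adjusted p = 0.116). The combined treatment over 1,25(OH)2D3 did, with a log2 fold change of 2.24 ± 0.51 (adjusted p = 0.00371), a direction partly set by the filter. For the combined treatment over Wnt3A the log2 fold change was 0.33 with a 95% interval of -0.43 to 1.08 (adjusted p = 0.622). A gene on the other strand shares exon positions with *NKD1*, and whether the counting used strand is not given in the sources used here.

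*NKD2* (chromosome 5, 1009168 to 1038925, plus strand) responded to both agents and was highest with both together. Its level in experiments 1, 2 and 3 was 74.0, 66.3 and 60.8 CPM with the combined treatment, 42.6, 47.6 and 29.4 CPM with Wnt3A, 29.5, 32.6 and 27.1 CPM with 1,25(OH)2D3, and 13.5, 17.3 and 10.5 CPM with vehicle. The combined group lay above every other library, the 2 single-agent groups overlapped each other, and vehicle lay below all. The log2 fold change over vehicle was 2.28 ± 0.17 with the combined treatment (adjusted p = 6.63e-08), 1.53 ± 0.18 with Wnt3A (adjusted p = 4.37e-05) and 1.11 ± 0.19 with 1,25(OH)2D3 (adjusted p = 0.000882). It was the only one of the 7 genes that passed the test in all 3 comparisons with vehicle without the block.

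The combined treatment raised *NKD2* over Wnt3A by 0.75 ± 0.15 on the log2 scale (adjusted p = 0.00259) and over 1,25(OH)2D3 by 1.17 ± 0.16 (adjusted p = 8.63e-05). Within experiments, 1,25(OH)2D3 added to Wnt3A gave log2 differences of 0.79, 0.48 and 1.04, and 1,25(OH)2D3 alone gave 1.10, 0.91 and 1.34. All 6 differences were positive, and in both comparisons experiment 3 had the largest and experiment 2 the smallest. 1,25(OH)2D3 against Wnt3A differed by -0.42 ± 0.16 (adjusted p = 0.0849, with the block 0.000778). Leaving out all 4 libraries of experiment 1 removed the call of *NKD2* for 1,25(OH)2D3 over vehicle (log2 fold change 1.09, adjusted p = 0.0842) and for the combined treatment over Wnt3A (0.74, adjusted p = 0.112). Those runs had no block. With the block and all libraries the adjusted p-values of these comparisons were 1.67e-10 and 2.62e-10.

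Among the inhibitors at the cell surface, *APCDD1* encodes a membrane glycoprotein that can bind Wnt ligands and LRP5. It lies on chromosome 18 (10454625 to 10488698, plus strand). Its level in experiments 1, 2 and 3 was 187, 231 and 162 CPM with the combined treatment, 113, 124 and 67.4 CPM with Wnt3A, 35.8, 38.7 and 20.5 CPM with 1,25(OH)2D3, and 24.0, 26.8 and 14.3 CPM with vehicle. Experiment 3 was the lowest and experiment 2 the highest in every group. The 1,25(OH)2D3 and vehicle groups overlapped, and every other pair of groups was apart. The log2 fold change over vehicle was 3.15 ± 0.33 with the combined treatment (adjusted p = 0.000166) and 2.22 ± 0.34 with Wnt3A (adjusted p = 0.00419).

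Within experiments the changes of *APCDD1* with either agent alone were far more even than its levels. Wnt3A over vehicle gave log2 differences of 2.22, 2.20 and 2.21 in experiments 1, 2 and 3, and 1,25(OH)2D3 over vehicle gave 0.57, 0.52 and 0.51. 1,25(OH)2D3 added to Wnt3A gave more uneven differences of 0.72, 0.89 and 1.26. Without the block the log2 fold change was 0.55 ± 0.39 for 1,25(OH)2D3 over vehicle (adjusted p = 0.429) and 0.93 ± 0.27 for the combined treatment over Wnt3A (adjusted p = 0.0604). With the block these were 0.55 ± 0.12 (adjusted p = 0.000262) and 0.95 ± 0.07 (adjusted p = 4e-16), and both were also called without the block on leaving out experiment 3 (adjusted p = 0.0086 and 2.09e-06) or the filter on low counts (3.48e-05 and 4.18e-30). Without the block, leaving out experiment 1 or experiment 2 also removed the call for Wnt3A over vehicle (adjusted p = 0.162 and 0.0717), with log2 fold changes of 2.20 and 2.24. With the block and all libraries that change was 2.22 ± 0.09 (adjusted p = 8.26e-24).

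**Figure D3:**
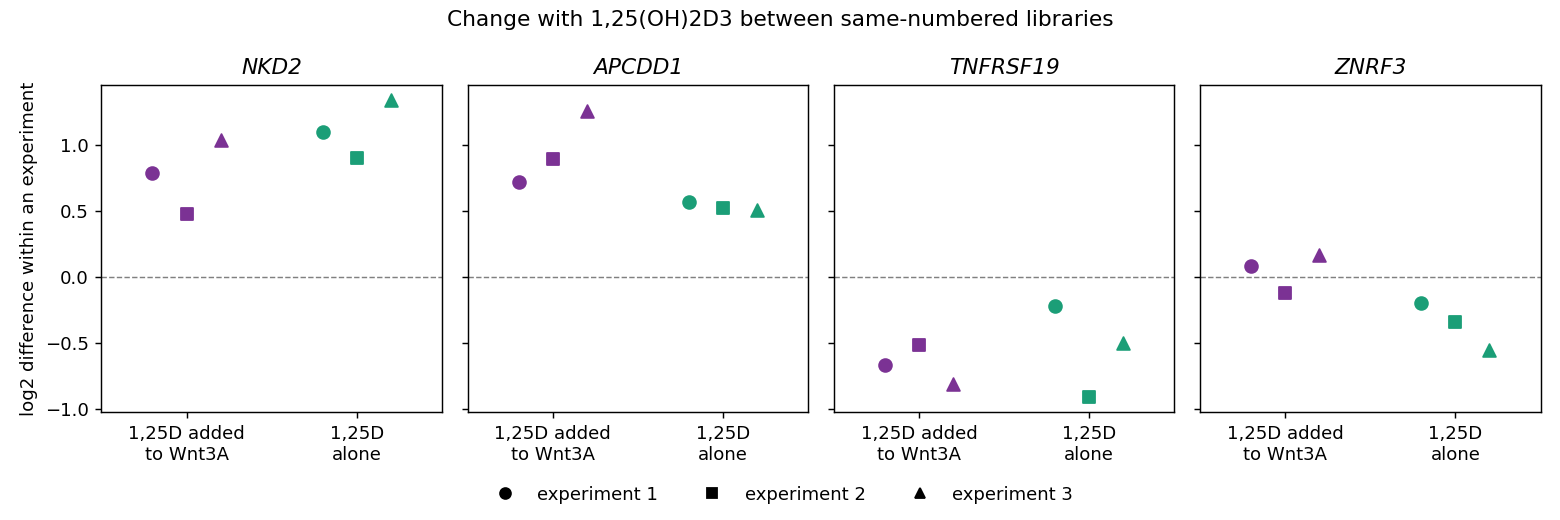
Log2 differences between same-numbered libraries (prior count of 2) for 4 genes, with 1,25(OH)2D3 added to Wnt3A (left in each panel) and with 1,25(OH)2D3 alone over vehicle (right), each point 1 experiment. All 6 differences are positive for *NKD2* and *APCDD1* and negative for *TNFRSF19*, and for *ZNRF3* they run from -0.12 to 0.17 with Wnt3A and from -0.55 to -0.20 without it.

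*ZNRF3* and *RNF43* encode transmembrane E3 ubiquitin ligases that remove Frizzled receptors from the surface. *ZNRF3* (chromosome 22, 29279890 to 29453475, plus strand) had 16.8, 15.9 and 18.9 CPM in experiments 1, 2 and 3 with the combined treatment, 15.8, 17.3 and 16.8 CPM with Wnt3A, 9.21, 7.01 and 7.15 CPM with 1,25(OH)2D3, and 10.6, 8.95 and 10.6 CPM with vehicle. The 6 libraries with Wnt3A lay above the 6 without it. The 1,25(OH)2D3 and vehicle groups overlapped in 1 library each. The log2 fold change over vehicle was 0.77 ± 0.14 with the combined treatment (adjusted p = 0.000168) and 0.72 ± 0.14 with Wnt3A (adjusted p = 0.000969), the smallest of the 6 rises with Wnt3A alone. With Wnt3A over vehicle, leaving out experiment 2 gave 0.61 without the block (adjusted p = 0.0712). All libraries with the block gave 0.72 (adjusted p = 7.61e-05).

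For 1,25(OH)2D3 over vehicle *ZNRF3* had a log2 fold change of -0.36 with a 95% interval of -0.70 to -0.02 (adjusted p = 0.150), and the value was below 0 in all 3 experiments (-0.20, -0.34 and -0.55). For the combined treatment over Wnt3A it was 0.05 with an interval of -0.22 to 0.31 (adjusted p = 0.860). The combined treatment gave 1.13 ± 0.15 over 1,25(OH)2D3 (adjusted p = 6.35e-06).

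*RNF43* (chromosome 17, 56431038 to 56494931, minus strand) had 0 reads in all 12 libraries. A floor of 3 reads corresponds to 0.479 to 0.559 CPM in a single library and to 0.0428 CPM over the 12 libraries, so any level below that was not detectable at this depth. An annotated gene without a symbol overlaps the exons of *RNF43* on the same strand, and *TSPOAP1-AS1* does on the other strand. How reads there were assigned is not given in the sources used here, and its part in the 0 reads was not tested. *SP5* (chromosome 2, 171571857 to 171574498, plus strand), a zinc finger transcription factor induced by Wnt signalling in many cell types, likewise had 0 reads in all 12 libraries and has the same floor. Its promoter, printed above, holds the 3 TCF/LEF cores. Of the 21893 genes of the table, 19.0% had no read in any library. No fold change can be given for either gene.

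Of the receptors, *TNFRSF19* encodes TROY, a receptor of the tumour necrosis factor receptor family known as a Wnt target in intestinal stem cells. It lies on chromosome 13 (24144723 to 24250232, plus strand). Its level in experiments 1, 2 and 3 was 36.7, 37.1 and 26.8 CPM with the combined treatment, 58.3, 53.2 and 47.3 CPM with Wnt3A, 18.9, 12.9 and 10.7 CPM with 1,25(OH)2D3, and 22.1, 24.6 and 15.3 CPM with vehicle. The Wnt3A group lay above all other libraries and the combined group came next, apart from both remaining groups, which overlapped. Here the combined treatment was the lower of the 2 treatments with Wnt3A, unlike in *NKD2* and *APCDD1*. The log2 fold change over vehicle was 0.69 ± 0.19 with the combined treatment (adjusted p = 0.0157) and 1.36 ± 0.18 with Wnt3A (adjusted p = 0.00017).

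1,25(OH)2D3 lowered *TNFRSF19* on the background of Wnt3A, by 0.66 ± 0.17 on the log2 scale (log2 fold change -0.66, adjusted p = 0.0167). Over vehicle its log2 fold change was -0.53 with a 95% interval of -1.01 to -0.05 (adjusted p = 0.134, with the block 0.00135). Within experiments the differences were -0.66, -0.52 and -0.81 with Wnt3A and -0.22, -0.91 and -0.50 without it, all below 0. Without the block the first call was lost on leaving out replicate 1 of Wnt3A (adjusted p = 0.0818), replicate 2 of Wnt3A (0.0622) or replicate 3 of the combined treatment (0.0604), and with the deposited values left undivided (0.109). With the block it had adjusted p = 5.27e-08. For the combined treatment over vehicle the call was lost on leaving out replicate 1 of vehicle (adjusted p = 0.0527) or replicate 1 or 2 of the combined treatment (0.0597 and 0.0725), and with undivided values (0.0598). These runs too had no block, and with it and all libraries the adjusted p was 4.54e-07.

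*LGR4* encodes a receptor for R-spondins, which stabilise Frizzled at the surface by removing ZNRF3 and RNF43. It lies on chromosome 11 (27387508 to 27494334, minus strand), and an antisense gene, *LGR4-AS1*, overlaps its exons. Its level in experiments 1, 2 and 3 was 4.97, 7.93 and 5.36 CPM with the combined treatment, 9.77, 8.20 and 7.14 CPM with Wnt3A, 7.67, 8.11 and 6.78 CPM with 1,25(OH)2D3, and 5.38, 8.47 and 8.80 CPM with vehicle. All 4 groups overlapped. The log2 fold change over vehicle was -0.30 with the combined treatment (95% interval -0.75 to 0.14), 0.14 with Wnt3A (-0.27 to 0.56) and -0.01 with 1,25(OH)2D3 (-0.44 to 0.42), with adjusted p-values of 0.328, 0.800 and 0.981. The interval for Wnt3A does not reach the 0.72 measured in *ZNRF3*, the smallest rise, but it overlaps the interval of *ZNRF3* (0.44 to 1.01). A difference between the 2 genes was not tested. For the combined treatment over Wnt3A the log2 fold change of *LGR4* was -0.45 with an interval of -0.88 to -0.01 (adjusted p = 0.176).

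To ask whether the 2 agents added up, the log2 change with both was set against the total of the log2 changes with each. The test of this difference was passed by 0 of the 7 genes (edgeR, adjusted p = 1.00 for each). Over all 12216 tested genes 0 (0%) were called, while 354 (2.90%) had an unadjusted p under 0.05. DESeq2 on the 12 libraries called 0. edgeR called 18 with the replicate block (0.147%) and 9 without the filter on low counts, and 0 of these were among the 7 genes. The difference was -0.36 for *NKD2* (95% interval -0.88 to 0.17), 0.38 for *APCDD1* (-0.72 to 1.49), -0.13 for *TNFRSF19* (-0.73 to 0.47), -0.37 for *AXIN2* (-1.06 to 0.32), 0.41 for *ZNRF3* (-0.02 to 0.83) and -0.44 for *LGR4* (-1.05 to 0.18). For *NKD1* it was -2.20 (-4.51 to 0.11), and rests on the 1 read of the vehicle group. These intervals, from the fit without the block, are wide, and departures from additivity within them were not detectable in that fit. With the block the difference was -0.35 for *NKD2* (95% interval -0.66 to -0.05, adjusted p = 0.787) and 0.40 for *APCDD1* (0.13 to 0.67, adjusted p = 0.503). Both of these intervals exclude 0 before adjustment over all tested genes, and those of the other genes with the block include it.

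Levels can be set between genes only per length. Per kilobase of annotated exon, *APCDD1* had 41.2 ± 7.47 CPM, *NKD2* 26.5 ± 2.63 CPM, *TNFRSF19* 6.86 ± 1.19 CPM, *AXIN2* 3.89 ± 0.41 CPM, *ZNRF3* 2.58 ± 0.23 CPM, *LGR4* 0.959 ± 0.253 CPM and *NKD1* 0.719 ± 0.189 CPM with the combined treatment (SD, n = 3 each). With vehicle the order was *NKD2* at 5.44 ± 1.34, *APCDD1* at 4.63 ± 1.40, *TNFRSF19* at 4.22 ± 0.99, *ZNRF3* at 1.51 ± 0.14, *LGR4* at 1.19 ± 0.30, *AXIN2* at 0.418 ± 0.058 and *NKD1* at 0.019 ± 0.034 CPM per kilobase. *LGR4* and *NKD1* with the combined treatment, and the first 3 genes and *ZNRF3* and *LGR4* with vehicle, did not differ from their neighbours in the order beyond these SDs. *AXIN2* stood above *ZNRF3* and *LGR4* with the combined treatment and below both with vehicle.

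Other targets of the pathway moved in both directions. Of 47 further Wnt targets and feedback genes, all in the table, 33 were tested. With Wnt3A over vehicle 4 rose and 5 fell, where 4.96% of all tested genes rose and 3.33% fell. With the block 9 rose and 5 fell, where 1655 of all 12216 tested genes were called in either direction. The median log2 fold change of the 33 was 0.10, against -0.00 over all tested genes. The transcription factor *TCF7* rose by 1.26 ± 0.16 (adjusted p = 7.65e-06) and the secreted antagonist *DKK2* by 2.23 ± 0.27 (adjusted p = 3.88e-05). *CD44*, a hyaluronan receptor, fell by 0.49 ± 0.07 (log2 fold change -0.49, adjusted p = 1.26e-05), and the Notch ligand *JAG1* fell by 0.62 ± 0.09 (adjusted p = 3.23e-05). With the combined treatment over vehicle 12 rose and 9 fell, where 13.3% and 10.7% of all tested genes did, and with 1,25(OH)2D3 over vehicle 8 rose and 7 fell, where 8.54% and 6.12% did. With 1,25(OH)2D3 alone *DKK2* had a log2 fold change of 0.04 (adjusted p = 0.968).

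**Figure D4:**
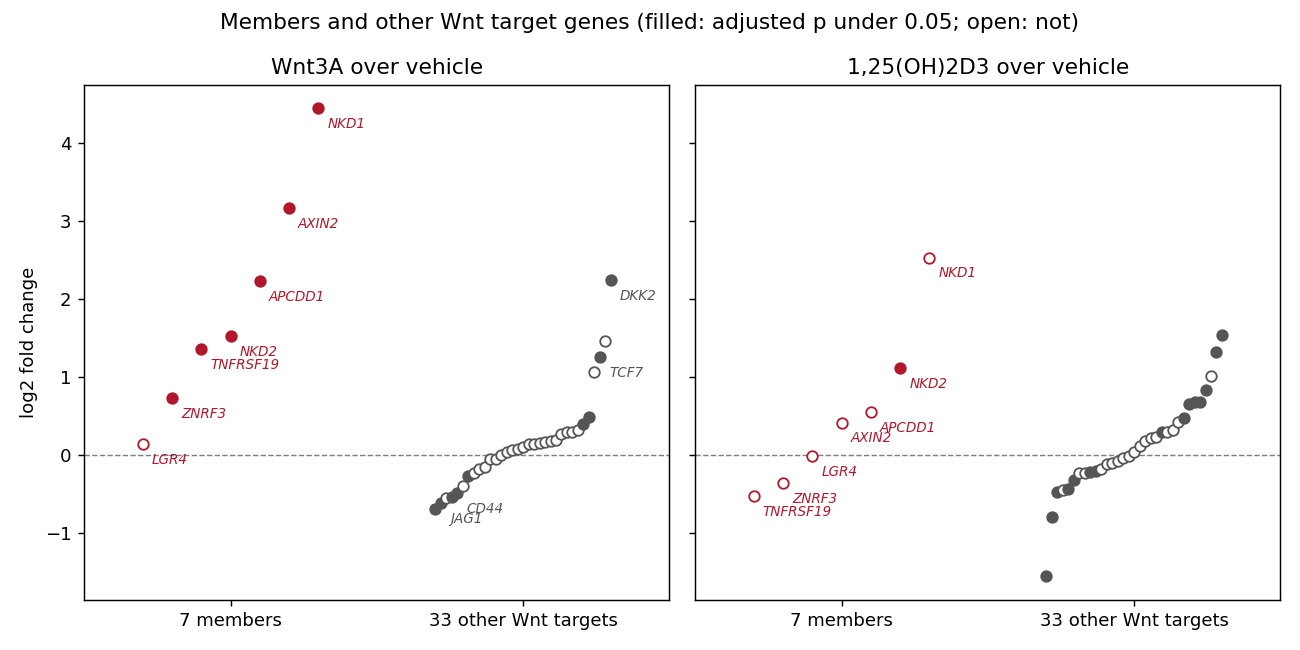
Log2 fold changes over vehicle with Wnt3A (left panel) and 1,25(OH)2D3 (right panel) for the 7 members and the 33 other Wnt targets tested, each ordered by value. With Wnt3A, 6 of 7 members are filled and above 0, whereas among the other targets 4 rose and 5 fell. With 1,25(OH)2D3, 1 member is filled.

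The destruction complex and cytoplasmic transduction had log2 fold changes over vehicle between -0.37 and 0.45 in 21 tested genes. With Wnt3A 0 rose and 1 fell, where 4.96% of all tested genes rose and 3.33% fell. With the block 1 rose and 1 fell, where 1655 of all 12216 tested genes were called in either direction. The one that rose with the block was *FAM123B*, named here after its values were seen (0.45, adjusted p = 0.105, with the block 0.0400), and it was lower with the combined treatment than with Wnt3A (-0.59 ± 0.17, adjusted p = 0.0187). The gene that fell was *BTRC*, a ubiquitin ligase subunit that recognises β-catenin, with a log2 fold change of -0.31 ± 0.07 (adjusted p = 0.00571). With the combined treatment over vehicle 2 of the 21 rose and 4 fell, where 13.3% and 10.7% of all tested genes did. The Dishevelled genes differed: *DVL2* rose (0.32 ± 0.09, adjusted p = 0.0102), *DVL1* fell (-0.37 ± 0.09, adjusted p = 0.00337) and *DVL3* had 0.06 (adjusted p = 0.603). With 1,25(OH)2D3 alone *DVL1* fell too (-0.30, adjusted p = 0.0281). The kinase gene *GSK3A* fell with the combined treatment (-0.27 ± 0.08, adjusted p = 0.013), and with the block also with 1,25(OH)2D3 alone (-0.20, adjusted p = 0.0348). *PPP2R1A*, a phosphatase 2A subunit, fell with 1,25(OH)2D3 (-0.29 ± 0.07, adjusted p = 0.00661) and with the combined treatment (-0.22 ± 0.07, adjusted p = 0.0293).

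Of 14 tested genes from a list of receptors, R-spondins and receptor turnover, 0 rose and 3 fell with Wnt3A over vehicle. No R-spondin passed the filter on low counts, so none was tested. *DVL2* is on this list as well as on that of the destruction complex and is counted in both. Of all tested genes 4.96% rose and 3.33% fell there. With 1,25(OH)2D3 over vehicle 5 rose and 0 fell, where 8.54% of all tested genes rose and 6.12% fell. With the block 1 fell with 1,25(OH)2D3 as well, where 11.2% of all tested genes fell. It was *FZD2* (-0.17, adjusted p = 0.0400, without the block 0.0917), named after its values were seen. The *FZD* genes named here encode Frizzled receptors, which ZNRF3 and RNF43 remove from the surface. *FZD4* had a log2 fold change of -0.83 ± 0.09 with Wnt3A (adjusted p = 2.6e-07) and 0.59 ± 0.08 with 1,25(OH)2D3 (adjusted p = 4.05e-06), and *FZD1* of -0.44 ± 0.08 (adjusted p = 0.000356) and 1.13 ± 0.07 (adjusted p = 1.56e-11). *FZD8* fell with Wnt3A (-0.90 ± 0.19, adjusted p = 0.00268). Among the comparisons with vehicle, *FZD7* passed the test with the combined treatment alone (-0.28 ± 0.08, adjusted p = 0.00716).

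The vitamin D list served as a contrast. Of 8 tested genes, 4 rose with 1,25(OH)2D3 over vehicle and 0 fell, where 8.54% of all tested genes rose and 6.12% fell. With Wnt3A over vehicle 0 rose and 1 fell, where 4.96% of all tested genes rose and 3.33% fell. *CYP24A1* and *CYP3A4*, both among those that rose, passed the filter on low counts only through the groups with 1,25(OH)2D3. Their rise was thus partly set by that filter. *THBD*, for thrombomodulin, rose with 1,25(OH)2D3 by 3.42 ± 0.12 (adjusted p = 1.13e-16) and fell with Wnt3A by 0.66 ± 0.19 (adjusted p = 0.0276). *VDR*, the receptor of the hormone, rose by 0.39 ± 0.07 with 1,25(OH)2D3 (adjusted p = 0.000109) and had 0.01 ± 0.07 with Wnt3A. *CYP3A4* had 50 reads in all with the combined treatment and 54 with 1,25(OH)2D3, against 0 with Wnt3A and 0 with vehicle.

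The genes whose pattern over the 12 libraries was most like each member's were found by the root mean square difference of their centred log2 CPM. *APCDD1* was nearest to *GPC3* (0.302, against a median of 1.33 over all tested genes), *LPPR4* and *AXIN2*. *AXIN2* was nearest to *LPPR4* (0.376, median 1.44), *ODZ3* and *GPC3*. *NKD2* was nearest to *SGK223* (0.244, median 0.869), *BCAT1* and *CCDC48*. *ZNRF3* was nearest to *AFAP1L2* (0.151, median 0.517), *KCTD12* and *AMIGO2*, and *TNFRSF19* to *KIT* (0.191, median 0.781) and *SLC9A3*. For *NKD1*, near the limit of detection, the nearest were *PKP2* (0.489, median 1.10), *NKD2* and *RORA*.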

How the data were processed

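RNA was sequenced from 12 libraries of CCD-18Co cells, grouped by the treatment in the labels. Per the study's methods, the authors made stranded polyA+ libraries, read 40 bases from one end, and used ELAND v2e (CASAVA 1.8) for alignment to GRCh37/hg19. The deposited values are whole-number counts per gene, not normalized, which the authors call reads. How reads were assigned to genes, from which annotation and with what strand setting, is not given in the sources used here. In 1711 genes with a mean of 1 to 5 reads, the ratio of variance to mean was 45.3 as deposited and 1.14 after division by 40, so values were divided by 40 and rounded. Only 78.2% to 80.9% of low values were exact multiples, so a read equivalent need not be 1 whole read. Intervals and floors from read sums cover counting error only.

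Genes kept by filterByExpr (minimum count 10) numbered 12216 of 21893. Of the members, *NKD1* passed through the groups with Wnt3A. They were tested with edgeR 4.0.16 (limma 3.58.1, R 4.3.3) with TMM, robust dispersions and the quasi-likelihood F test, in 1 fit of all libraries. No block was used. P-values were adjusted by Benjamini-Hochberg over all tested genes, with a threshold of 0.05. The study states DESeq2 with the same threshold. A prior count of 0.125 entered the log2 fold changes, and one of 2 the differences within experiments and the pattern distances. Additivity was tested as a contrast of the 4 group means. Exon lengths and overlaps come from GENCODE lifted to GRCh37. The script was tested on simulated data.

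Replicate numbers 1 to 3 stand for experiments, per a legend of the study. Deviations from the group means over 6108 genes correlated at 0.238 to 0.538 in 18 same-numbered pairs and at -0.419 to 0.015 in 36 others. The experiments thus pair the libraries. The replicate block was nevertheless an alternative, and calls are from the fit without it unless the block is named. The fit without the block ignores this pairing, as do its SEs and intervals and the runs that leave out libraries. Other alternatives were DESeq2 1.42.0, edgeR on the groups of a comparison alone, other scaling, filters and thresholds, undivided values, each library left out and, chosen after seeing the data, each experiment left out.

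The members and lists were chosen with earlier results of these data known. All 9 members are named, with up to 4 genes of each further list by the smallest p for Wnt3A over vehicle among those called in a comparison with vehicle, the 3 nearest genes in pattern (mean of at least 1 CPM) for each member called, and *CYP24A1* as the treatment check. *CD14*, *VWF*, *FAM123B*, *FZD2*, *DVL1* and *DVL3* were added after their values were seen. One gene that this rule names is not reported here. No library was left out.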

Additional observations from a re-analysis of the deposited data

How the results depend on the processing

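The replicate block changed the count of genes called from 1791 to 2959 for 1,25(OH)2D3 over vehicle, 1013 to 1655 for Wnt3A over vehicle, 1642 to 2685 for the combined treatment over Wnt3A, 1127 to 1812 for the combined treatment over 1,25(OH)2D3 and 0 to 18 for additivity. Of the 7 members it called 3 for 1,25(OH)2D3 over vehicle, where 1 was called without it, and it changed no other call than those given with the results. With a threshold of 0.01 the counts were 1000 for 1,25(OH)2D3, 597 for Wnt3A and 1797 for the combined treatment over vehicle, 905 for the combined treatment over Wnt3A, 676 over 1,25(OH)2D3, and 1658 for 1,25(OH)2D3 over Wnt3A. With DESeq2 on the groups of a comparison alone they were 940, 611 and 1781 over vehicle in the same order. Without a filter on low counts 9 genes were called for additivity and 3 members for 1,25(OH)2D3 over vehicle, and DESeq2 on the 12 libraries called 2 of them (*NKD2* and *TNFRSF19*). For the combined treatment over Wnt3A 1 member was called at 0.01, and 1 with the values undivided. The cause of these differences was not tested. DESeq2 on the groups of a comparison alone changed both the program and the libraries in the fit.

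Leaving out 1 library or 1 whole experiment called 767 to 1864 genes and 0 to 3 members for 1,25(OH)2D3 over vehicle, 435 to 1010 and 3 to 6 for Wnt3A over vehicle, 1487 to 2952 and 4 to 6 for the combined treatment over vehicle, 565 to 1913 and 0 to 3 for it over Wnt3A, 500 to 1259 and 4 to 6 for it over 1,25(OH)2D3, and 1428 to 2984 and 3 to 6 for 1,25(OH)2D3 over Wnt3A. For additivity 0 genes were called each time. The lowest counts of genes came without experiment 2. All values that changed sign were uncalled. *LGR4* ranged over -0.22 to 0.17 with 1,25(OH)2D3 and -0.18 to 0.37 with Wnt3A over vehicle, *AXIN2* over -0.078 to 0.29 and *ZNRF3* over -0.019 to 0.14 with the combined treatment over Wnt3A, and the departure from additivity over -0.66 to 0.0037 for *AXIN2*, -0.42 to 0.14 for *TNFRSF19* and -0.72 to 0.024 for *LGR4*.

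Calls of members that changed under an alternative, beyond those given with the results, included *TNFRSF19* with 1,25(OH)2D3 over vehicle, which was called without replicate 3 of vehicle (adjusted p = 0.0246), without replicate 1 of 1,25(OH)2D3 (0.0225) and without experiment 3 (0.0271). With the combined treatment over 1,25(OH)2D3, *APCDD1* was lost without experiment 1 (0.0659) and *TNFRSF19* without experiment 2 (0.0566). With both agents set against Wnt3A, *TNFRSF19* was lost without experiment 1 or 2 (0.0567 and 0.114), and DESeq2 on the groups alone called *APCDD1* (0.0246). Over vehicle with the combined treatment, *TNFRSF19* was lost without experiment 1 or 2 (0.0526 and 0.0916). For 1,25(OH)2D3 over Wnt3A, *NKD1* was lost without replicate 2 of Wnt3A (0.0679), with DESeq2 (0.0582 on 12 libraries, 0.0837 on the groups alone) and undivided (0.238), *APCDD1* was lost without experiment 1 or 2 (0.134 and 0.065), and *NKD2* was called without replicate 3 of Wnt3A (0.00192), without experiment 3 (0.00277) and without the filter (0.00123). The combined treatment over 1,25(OH)2D3 lost *NKD1* with undivided values (0.298).

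No alternative other than leaving out libraries reversed a value. *AXIN2* over vehicle with Wnt3A and with the combined treatment was called under all 24 alternatives. *NKD1* was not tested in some of them, because it failed the filter, and DESeq2 gave no adjusted p for it in others. With a prior count of 0.5, 14 of the 18 nearest genes in pattern were shared. Depth limits *NKD1*, *RNF43* and *SP5* most, and the part of overlapping genes in the count of *RNF43* was not tested.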
